A study of Mus musculus with 6 samples.

Results

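The data described here are 3 subcutaneous Hepa1-6 tumors, removed at day 10 after inoculation, each measured against a reference RNA on its own 2-colour Agilent array. Hepa1-6 is a mouse hepatoma cell line. The 3 arrays are those titled as day 10 tumors 302, 307 and 312, out of 6 arrays in the series, and the other 3 carry day 15 tumors that are not compared here. The tumors grew under the skin of female C57Bl/6 mice and went into RNAlater when taken. Per the labels, tumor RNA carried the dye Cy5 on every array, and the reference carried Cy3 and was total RNA of blood from an untreated female C57Bl/6 mouse. The dyes were never exchanged, so any dye bias that a probe has is part of its ratio. The labels give neither the mouse behind each tumor nor the age of the mice, and the p-values measure only the spread between these tumor samples against 1 reference RNA whose own spread is not part of the test.

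A tumor implanted under the skin holds more than the injected cancer cells. Monocytes enter it and become macrophages, lymphocytes infiltrate it, fibroblasts lay down collagen, vessels grow in, and fat, muscle or skin at the edge can be taken with it. Interferons, the cytokines that switch on antiviral and antigen presentation genes, and hypoxia, which induces glycolysis and vessel growth factors, are among the signals known in such tissue. In bulk RNA, more cells of a type and more RNA per cell cannot be told apart.

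All values are log2 ratios of tumor over reference after loess normalization within each array, so 1 unit is a doubling. A gene was called higher or lower when its mean over the 3 arrays had a Benjamini-Hochberg adjusted p under 0.05 in limma and a log2 ratio of at least 1 in size. Where the reference probe was not well above background on any array, the size is a lower limit, written as at least so many fold. The share of spots well above background ran from 52.4% to 57.9% in Cy5 and from 47.5% to 52.8% in Cy3 over the arrays, and median intensities were lowest in both dyes for tumor 312. On the array of tumor 312 signal was lost in a central area of irregular shape, which held 14.3% of the non-control spots. Its outer limits were rows 153 to 357 and columns 23 to 65, and not every spot within those limits belonged to it. Inside it, the Cy3 log2 intensity lay 2.91 below the other arrays, against 0.25 below outside it, and the Cy5 values were 3.02 and 0.38 below. A named gene whose probe lies there is marked, with the mean of tumors 302 and 307 or the single values.

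The label of the reference was set against markers of blood cells. Of 42 defining genes of 7 blood lineages, 41 had a probe, and for 20 a probe was above background in Cy3 on each of the 3 arrays. For 15 of them no probe was above background in Cy3 on any array, among them the neutrophil granule genes Mpo, Elane and Ngp, the erythrocyte gene Slc4a1, the platelet receptor genes Gp1ba and Gp5, and Cd4. Apart from Slc4a1, the genes just named were not above background in Cy5 on any array either, so they were low on both sides. The haemoglobin genes, which blood carries in abundance, were higher in every tumor than in the reference. Hbb-bt had log2 ratios of 5.55, 5.53 and 5.45 in tumors 302, 307 and 312, with a mean of 5.51 ± 0.05 (SD, n = 3; adjusted p = 6.1e-05), and the 3 values lay within 0.1 of each other. Hba-a1 averaged 3.63 and Alas2, an enzyme of heme synthesis in red cell precursors, 2.23. Genes that blood cells are not known for gave clear Cy3 signal, well above background, on each of the 3 arrays, among them the simple epithelial keratins Krt8 and Krt18, the liver genes Alb and Afp and the milk protein gene Csn3. The part that these features of the reference have in the ratios that follow was not tested.

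Of 16244 genes tested, 3839 were higher in the tumors (23.6%) and 1473 were lower (9.07%), so 72.3% of the calls were higher. The share moved with the scaling, being 48.2% after median centring without loess and 57.5% with the scanner's processed ratios, and the median log2 ratio of all genes moved from 0.21 to -0.20 and -0.03. Directions below are relative to that, and the counts of each list stand beside 23.6% higher and 9.07% lower of all genes. Of the higher genes, 3815 were above 0 on all 3 arrays, and of the lower genes 1466 were below 0 on all. The reference was not above background in any probe for 1002 of the higher genes. A ratio of at least 3 with both dyes measured was found for 799 higher genes, and a ratio of -2 or below for 150 lower genes.

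**Figure D1:**
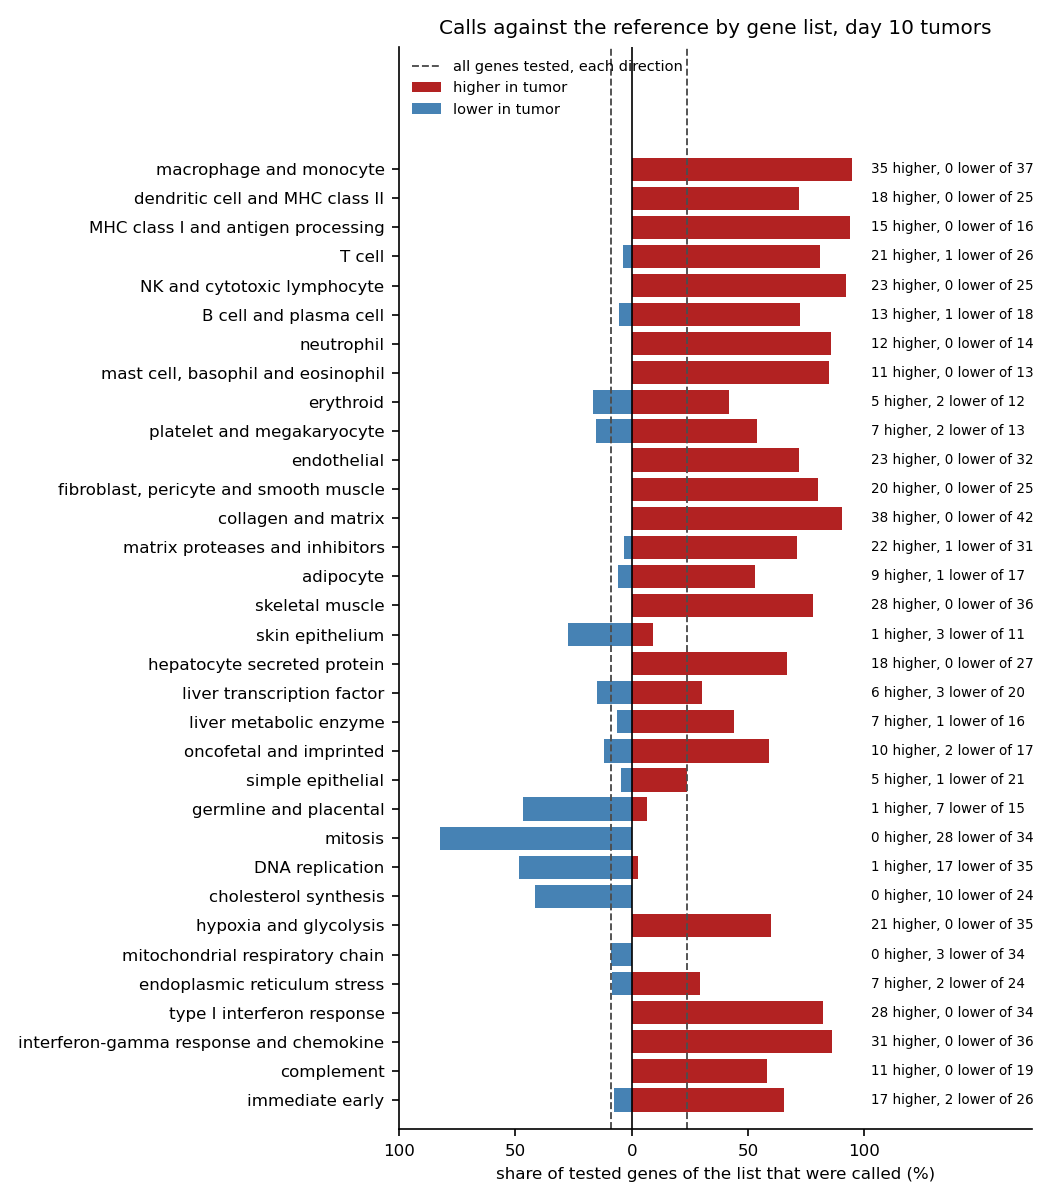
Share of the tested genes of each of 33 gene lists called higher (bars to the right, percent) or lower (bars to the left, percent) in the day 10 tumors than in the reference, with counts at the right. Dashed lines stand at 23.6% and 9.07%, the shares over all genes tested; the macrophage and the MHC class I lists reach furthest to the right and the mitosis list furthest to the left.

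Among called genes well above background in both dyes on at least 2 arrays, the highest ratio belonged to Ctss, which encodes cathepsin S, a protease of antigen-presenting cells. It measured 10.47, 10.19 and 10.05 in tumors 302, 307 and 312, a mean of 10.24 ± 0.22 (SD, n = 3; adjusted p = 6.1e-05). Next came Clec7a, the beta-glucan receptor dectin-1, with 8.55, 8.12 and 8.90, although its reference signal was above background on 2 arrays only. Adgre1, the gene of the macrophage antigen F4/80, measured 8.60, 8.51 and 7.92. All 3 tumors lay far above the reference for each of these genes, and none of them spread over more than 1 log2 unit. The other genes among the 12 highest by that rule were Ppic, Sparcl1, Cav1, Srgn, F13a1, Serpinh1, Col1a1, Ms4a6b and Ambp, with means between 7.21 and 8.0. They mix macrophage genes (F13a1, Ms4a6b), endothelial and matrix genes (Sparcl1, Cav1, Serpinh1, Col1a1) and a hepatocyte plasma protein gene (Ambp).

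**Figure D2:**
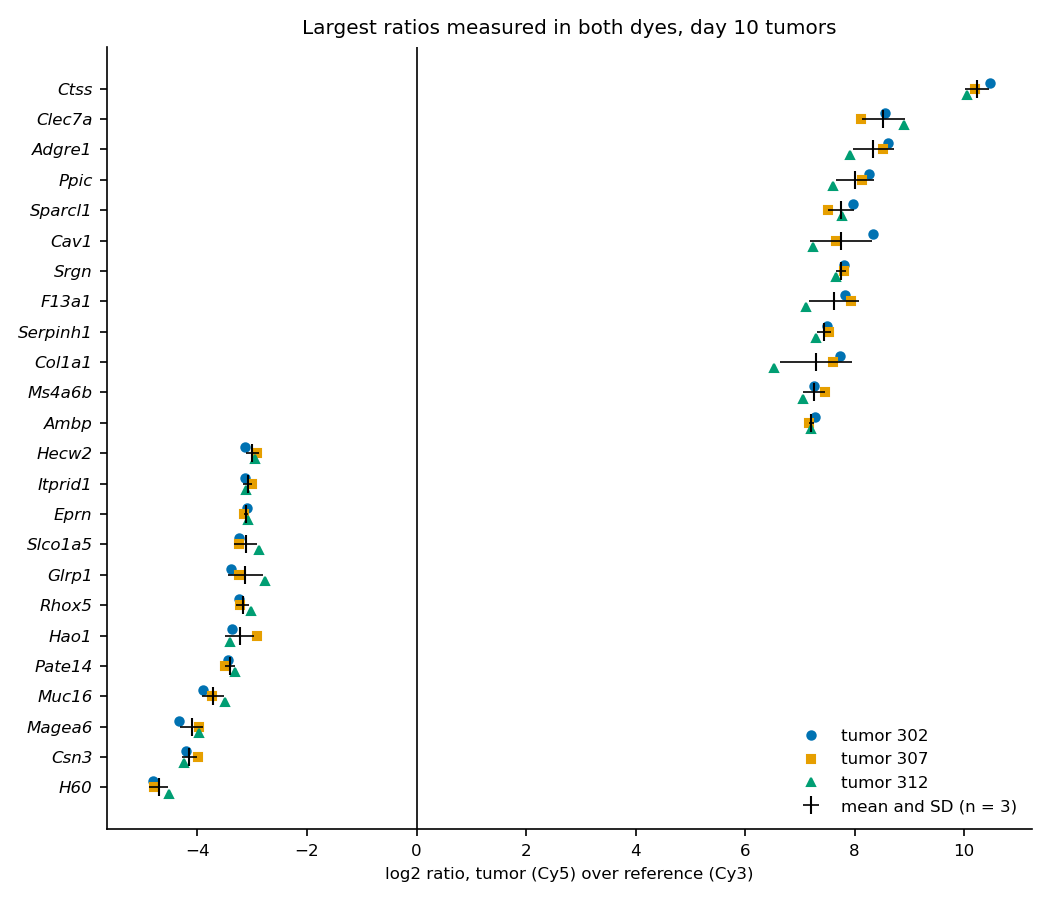
Log2 ratio of tumor (Cy5) over reference (Cy3) for the 12 genes of highest and the 12 of lowest mean ratio among called genes measured in both dyes; coloured symbols are single tumors, and black marks are the mean with its SD (n = 3). Ctss stands at 10.24 and H60 at -4.71, and for each of the 24 genes the 3 tumors lie on the same side of 0.

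Macrophage and monocyte genes were called higher in 35 of 37 tested and lower in none, with a median log2 ratio of 4.40 beside 0.21 for all genes. Besides Adgre1, the lineage receptor gene Csf1r averaged 4.27 ± 0.18, the lysozyme gene Lyz2 5.70 ± 0.08, the mannose receptor gene Mrc1 7.0 ± 0.45 and the lysosomal marker gene Cd68 3.58 ± 0.35 (SD, n = 3). Ccr2, the chemokine receptor by which monocytes leave the blood, was at least 46.8-fold higher, with no reference signal above background. Genes known from alternatively activated macrophages were high, with Arg1 (arginase) at 5.43 and Retnla at 5.01. Nos2, the nitric oxide synthase of classically activated macrophages, was at least 2.74-fold higher. Of the 2 members not called, Chil3 has its probe in the lost area and averaged 3.72 over tumors 302 and 307. With the spots of the lost area left out, 37 of the list were called, and without tumor 302, 32 were.

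The genes that present antigen to T cells followed. In the list of dendritic cell and MHC class II genes, 18 of 25 were higher, with a median of 2.67. Cd74, the invariant chain, measured 4.34, 4.38 and 4.33, and H2-Aa, a class II chain, 5.36, 5.25 and 5.02. Ciita, the master regulator of class II transcription, averaged 3.87 ± 0.05 and Cd83, a marker of mature dendritic cells, 4.78 ± 0.17 (SD, n = 3). For these genes the tumors differed by little. Of markers of cross-presenting dendritic cells, Batf3 was at 3.21, Clec9a was at least 2.03-fold higher, and Xcr1 at 0.91 was not called. H2-DMa, a peptide loader, lay in the lost area and averaged 4.18 in tumors 302 and 307. MHC class I and processing genes were higher in 15 of 16, among them H2-K1 at 5.29 (5.51 without the array of tumor 312, whose spot lay in the lost area), the immunoproteasome subunit gene Psmb9 at 4.46, the peptide transporter gene Tap1 at 3.48 and B2m at 2.64. Pdia3 at 0.72 was the member not called.

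T cell genes were higher in 21 of 26 tested and lower in 1, with a median of 3.08. The receptor complex gene Cd3g measured 5.16, 4.77 and 4.75, whereas Cd3e, of the same complex, measured 0.83, 0.58 and 0.45 and was not called. Cd8a, the co-receptor of cytotoxic T cells, measured 3.40, 3.33 and 3.34, while Cd8b1, its partner chain, was at 0.10 ± 0.14 and not called, and no probe of Cd4 passed the filter. Cd3d lay in the lost area and averaged 4.54 in tumors 302 and 307. Receptors that mark activated or exhausted T cells were higher as well: Pdcd1 (PD-1) averaged 4.09, Havcr2 (TIM-3) 3.90 and Lag3 2.71, and Ctla4 was at least 2.33-fold higher. Tcf7, a transcription factor of naive and memory T cells, was the member called lower, at -1.63 ± 0.18 (SD, n = 3; adjusted p = 4.0e-04).

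NK and cytotoxic lymphocyte genes were called higher in 23 of 25 tested and lower in none, with a median of 3.77. The granzyme genes Gzma, Gzmb and Gzmc averaged 5.20, 3.81 and 4.92 and the perforin gene Prf1 3.77. Ifng, the cytokine interferon gamma itself, measured 5.65, 5.29 and 5.40, and its transcription factor gene Tbx21 averaged 5.15. For Ifng the range over the tumors was small beside its distance from the reference. No reference signal was above background for 10 of the tested genes of the list. Of NK cell receptors among them, Cd244a was at least 43.3-fold, Klrc2 23-fold and Klrb1c 17-fold higher. Ncr1, a defining gene of the list, was at least 2.19-fold higher. Among B and plasma cell genes 13 of 18 were higher, with Ighm at 4.71 and the antibody joining chain gene Jchain at least 11.8-fold higher, and the B cell factor gene Pax5 was lower at -2.16 ± 0.35 (SD, n = 3). Ms4a1 (CD20), in the lost area, was at 0.17 with all arrays and 0.07 without tumor 312, and not called.

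Granulocyte genes were higher too, from a reference with little of their signal: 19.2% of the probes of the neutrophil list and 24.0% of those of the mast cell, basophil and eosinophil list had Cy3 signal well above background on each of the 3 arrays, beside 44.6% of all probes. In the neutrophil list 12 of 14 tested were higher, with Il1b at 4.96 (5.05 without tumor 312), Retnlg at 3.93 and the alarmin gene S100a8 at least 6.52-fold. S100a9, its partner, lay in the lost area and averaged 5.56 in tumors 302 and 307 and 2.80 in tumor 312. Of the defining neutrophil genes, Ltf (lactoferrin) at 0.30 was not called, and Mpo, Elane and Ngp had no signal above background in either dye. For 6 of the 14 tested no probe had Cy3 signal above background on any array. In the mast cell list 11 of 13 were higher, with the proteases Cma1 at 4.90 and Cpa3 at 4.65 and the eosinophil ribonuclease gene Ear1 at 4.70.

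The interferon lists were the next large block. Interferon-gamma and chemokine genes were higher in 31 of 36 with a median of 4.56, the highest of all lists. The interferon-inducible GTPase genes Igtp and Iigp1 averaged 6.51 ± 0.03 and 6.31 ± 0.12 and Gbp3 6.29 ± 0.23, and Gbp5 was at least 48.8-fold higher. Cxcl9, a ligand that attracts activated T cells, measured 5.53, 5.35 and 5.12, and Cxcl10 4.26, 4.38 and 4.17. Irf1, a transcription factor induced by interferon gamma, was nearly the same in the 3 tumors at 3.42, 3.43 and 3.44. Cd274, which encodes PD-L1, averaged 2.90 and the tryptophan-degrading enzyme gene Ido1, with reference signal on 1 array, 3.59. Other chemokines were higher too, with Ccl4 at 7.17, whose reference signal was above background on 1 array only, Ccl24 at 6.37, Cxcl12 at 6.09 and Ccl6 at 5.84. The neutrophil attractants Cxcl1 and Cxcl2 were at 0.03 and 0.16 and not called.

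Type I interferon genes were higher in 28 of 34 with a median of 3.04. Rtp4 measured 6.20, 6.26 and 4.80, Oasl2, of the oligoadenylate synthetase family, 4.99, 5.20 and 4.37, and Isg15, a ubiquitin-like protein, 4.08, 4.37 and 3.33. Tumor 312 was the lowest in each of these. Of the 27 genes of the list with a probe outside the lost area and a value in all 3 tumors, tumor 312 was the lowest in 27. Over all genes tested outside the area, it was the lowest in 37.6%. This was not particular to the list: tumor 312 was the lowest in 30 of 32 macrophage, 24 of 32 interferon-gamma and 16 of 20 dendritic cell genes. It was the lowest in 11 of 24 NK genes and in 0 of 34 skeletal muscle genes. The part of the lower intensities of the array of tumor 312 in this order was not tested. The medians of the whole type I interferon list were 3.22, 3.24 and 1.76 in tumors 302, 307 and 312, and that of tumor 312 was 2.81 over the genes outside the area. With the array of tumor 312 left out, 32 of the list were called higher, and 24 were without tumor 302 or after median centring. For Rsad2, viperin, whose probe lies in the area, tumors 302 and 307 measured 5.88 and 6.03.

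**Figure D3:**
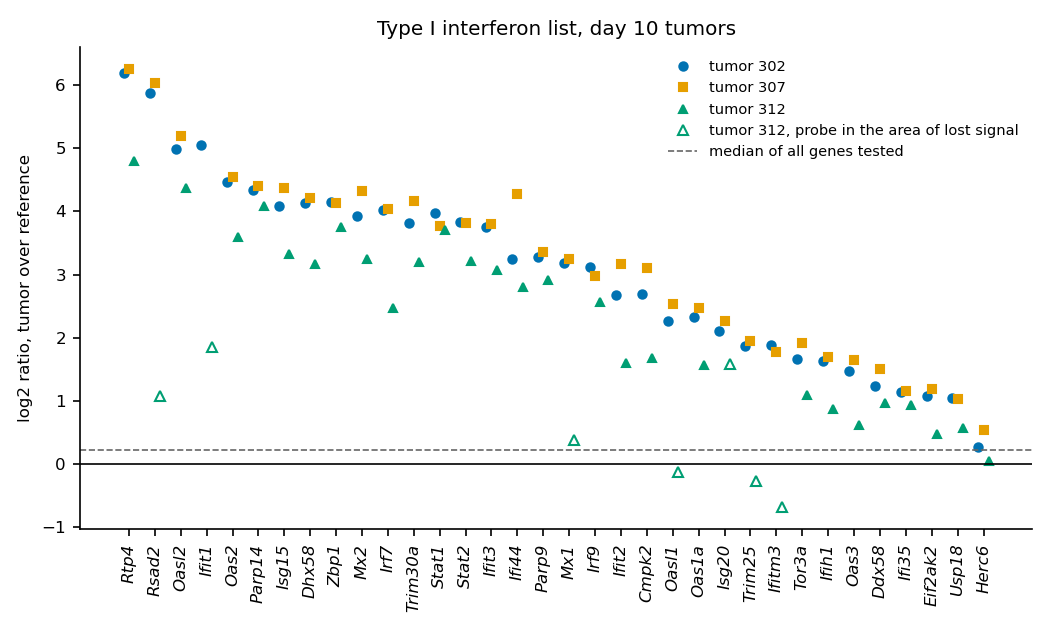
Log2 ratio of tumor over reference for the 34 tested genes of the type I interferon list, in order of the mean of tumors 302 and 307; each symbol is 1 tumor, open triangles are values of tumor 312 from the area of lost signal, and the dashed line is the median of all genes, 0.21. Tumor 312 lies below tumors 302 and 307 at each of the 27 genes outside the area with 3 values.

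Promoters of some type I interferon genes are shown as examples, since interferon-regulated transcription factors are known to bind a repeat of GAAA. The part of the motif in the ratios was not tested. The motif, GAAA, any 2 bases and GAAA again, was searched on both strands (on the other strand it reads TTTC, any 2 bases, TTTC) from 250 bases before to 50 bases after each gene start in RefSeq (GRCm38.p6), with overlapping matches counted. It was found in 12 of the 25 type I interferon genes that had a promoter in the table (48%) and in 12 of 28 of the interferon-gamma and chemokine list (42.9%), beside 3.99% of all genes. A match is a description of the letters and shows no binding. The stretches below run 5′ to 3′ on the strand of the gene, with matches in capitals, and their genes had log2 ratios, in the order listed, of 3.93 (Isg15), 3.54 (Ifit3), 2.12 (Oas1a), 4.33 (Rsad2; 5.96 without tumor 312), 3.62 (Stat2) and 3.73 (Trim30a).
Isg15, chr4:156200855-156200916, minus strand, 3 overlapping matches: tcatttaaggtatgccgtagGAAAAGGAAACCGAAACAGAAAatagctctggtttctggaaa
Ifit3, chr19:34583353-34583436, plus strand, 2 matches: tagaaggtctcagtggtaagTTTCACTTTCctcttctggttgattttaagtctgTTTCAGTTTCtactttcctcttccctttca
Oas1a, chr5:120907526-120907565, minus strand, 2 overlapping matches: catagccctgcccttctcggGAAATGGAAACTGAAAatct
Rsad2, chr12:26456543-26456592, minus strand, 1 match: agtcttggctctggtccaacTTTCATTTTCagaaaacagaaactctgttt
Stat2, chr10:128270256-128270305, plus strand, 1 match: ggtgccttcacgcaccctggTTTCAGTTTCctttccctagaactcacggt
Trim30a, chr7:104465200-104465249, minus strand, 1 match: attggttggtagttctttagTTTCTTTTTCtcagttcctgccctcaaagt
In Isg15 and Oas1a the GAAA units follow one another without a gap other than the spacer, and in Ifit3 the matches stand apart.

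Complement genes were higher in 11 of 19, beside 23.6% of all genes. They were led by C3, the central component, at 5.75 ± 0.19 (SD, n = 3), and C4b, in the lost area, at 4.79 with all arrays and 5.03 without tumor 312. C1ra and C6 lay there too and averaged 3.92 and 3.24 in tumors 302 and 307. Hc, which encodes C5, was at -0.09 and not called.

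Matrix genes were called higher in 38 of 42 and lower in none, with a median of 3.50. The fibrillar collagen gene Col3a1 measured 7.0, 6.73 and 6.65 in tumors 302, 307 and 312, and Col1a2 6.34, 6.10 and 5.92. Col1a1 averaged 7.29 with all arrays and 7.67 without tumor 312, where its spot lay in the lost area. Serpinh1, the collagen chaperone, averaged 7.44 ± 0.13, Fbn1 (fibrillin) 6.69 ± 0.24 and the crosslinking enzyme gene Lox 5.09 ± 0.35 (SD, n = 3). Tumor 302 was the highest in 27 of the 37 matrix genes outside the lost area and tumor 312 the lowest in 30, beside 30.2% and 37.6% of all genes. Fibronectin (Fn1) at 0.96 (1.11 without tumor 312, in the lost area) and thrombospondin 1 (Thbs1) at 0.31 were not called.

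Fibroblast, pericyte and smooth muscle genes were higher in 20 of 25, with the proteoglycan gene Lum at 7.73, Postn at 5.77 (no value in tumor 307) and the receptor gene Pdgfrb, of pericytes, at 5.90 ± 0.34; Fap, of activated fibroblasts, was at least 15.7-fold higher. Lum had reference signal above background on 1 array. Acta2 (smooth muscle actin) at 0.77 was not called. Dcn (decorin) was at 0.49 over tumors 302 and 307, its spot for tumor 312 being an outlier. Dcn turned to -1.03 when probes had to be above background on all 3 arrays, since another probe then stood for the gene, so its direction is not settled here.

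Endothelial genes were higher in 23 of 32. The VE-cadherin gene Cdh5 was at least 28.2-fold higher, Flt1, a receptor for vascular endothelial growth factor, measured 5.34, 5.09 and 5.17, and Emcn 4.15, 4.73 and 4.50. Of the 9 not called, 6 lay in the lost area: Mmrn2, Sox18, Icam2, Nos3 and Prox1, which averaged 6.26, 2.51, 1.23, 0.95 and 0.76 in tumors 302 and 307, and Erg, which had no reference signal above background. With the spots of the area left out, 27 of the list were higher, and without tumor 302, 21 were. Lyve1, of lymphatic endothelium and some macrophages, also lay there and had no reference signal; it was at least 39-fold higher over the 3 arrays, with values of 7.56, 7.93 and 1.73 in tumors 302, 307 and 312. Proteases and inhibitors of the matrix were higher in 22 of 31, with the cathepsin gene Ctsc at 6.70, Adamts2 at 5.53, Mmp2 at 3.94 and Timp1 at 2.64. Mmp10 was lower at -2.92 ± 0.14 (SD, n = 3), and Mmp13 at 0.34 was not called.

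Hepatoma cells were looked for through liver genes. Genes of secreted hepatocyte proteins were called higher in 18 of 27 tested and in none lower, with a median of 2.19. Ambp measured 7.27, 7.17 and 7.2, the prothrombin gene F2 5.08, 5.25 and 5.43, and Alb 2.58, 2.26 and 3.06. Ttr, transthyretin, was at least 8.13-fold higher and Apoa1, in the lost area with values of 2.0, 1.69 and 2.04, at least 3.68-fold. Afp, the fetal albumin relative used as a liver tumor marker, averaged 2.48 with all arrays and 2.30 without tumor 312. F9 and Rbp4 were at 0.02 and -0.02 (-0.04 without tumor 312, in the lost area) and not called. Oncofetal and imprinted genes were higher in 10 of 17, among them the growth factor adaptor gene Grb10 at 5.42, with reference signal on 1 array only, the liver tumor glypican gene Gpc3 at 4.84 ± 0.10 and Cdkn1c at 3.85. The RNA-binding protein genes Igf2bp1 and Igf2bp3 were lower, at -1.32 and -1.14, and Igf2 at 0.06 (-0.14 without tumor 312, in the lost area) was not called.

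Liver transcription factors were higher in 6 of 20 and lower in 3, beside 23.6% and 9.07% of all genes: Cebpa averaged 1.73 and Cebpb 2.36, while Hnf4a, a master regulator of hepatocyte genes, measured -1.77, -1.73 and -1.48; after median centring 7 were lower. Of 16 liver enzyme genes 7 were higher and 1 lower, with Ass1 of the urea cycle at 2.73 and Aldh1a1 at -2.15. The probes of Cps1, Cyp7a1, G6pc and Tdo2 did not pass the filter. Simple epithelial genes were near the reference. Krt8 measured -0.14, 0.03 and -0.23 and Krt18 0.05, 0.08 and 0.32, and neither was called. In this list 5 of 21 were higher (3 without tumor 302), near the 23.6% of all genes, and 1 was lower, Grhl2 at -2.45; its median changed sign, from 0.15 to -0.46, with median centring and to -0.18 with the scanner's processed ratios.

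Genes of dividing cells lay below the reference. Of 34 mitosis genes, 28 were lower and none higher, with a median of -1.28. The checkpoint kinase gene Bub1 measured -2.33, -2.84 and -1.96, the spindle checkpoint gene Mad2l1 -2.26, -2.74 and -2.02, and Hmmr -2.30, -2.76 and -1.95. In each, tumor 307 was the lowest and tumor 312 the highest. Mki67, the proliferation marker Ki-67, was at -0.55 and not called. Tumor 307 was the lowest in 28 of the 29 mitosis genes with values outside the lost area and tumor 312 the highest in 29, beside 37% and 41.4% of all genes. Outside that area, tumor 312 was also the highest in 14 of 19 cholesterol synthesis genes and in 22 of 31 respiratory chain genes. The count of lower mitosis genes was 21 without tumor 307 and 33 after median centring.

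DNA replication genes showed the same order of the tumors, with tumor 307 the lowest in 30 of 31 and tumor 312 the highest in 29. Of 35 tested, 17 were lower and 1 higher, with Ccne2 (cyclin E2) at -2.90 and the helicase gene Mcm2 at -1.12. E2f2 was the member called higher, at 1.31, and Mcm5 at -0.14 was not called. The count of lower genes was 31 after median centring and 10 without tumor 307. Among 24 cholesterol synthesis genes tested 10 were lower and none higher, beside 9.07% and 23.6% of all genes. Hsd17b7 was at -2.12 ± 0.12, Idi1 at -2.10 ± 0.32 and Cyp51 at -1.95 ± 0.32 (SD, n = 3). The count of lower cholesterol synthesis genes was 18 after median centring and 17 with the scanner's processed ratios.

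The lowest ratio measured in both dyes was that of H60, a ligand of the NK cell receptor NKG2D, with -4.82, -4.79 and -4.52 in tumors 302, 307 and 312. Csn3, a casein, followed with -4.21, -3.99 and -4.25, Magea6, of the germline-restricted MAGE family, with -4.34, -3.97 and -3.98, and the mucin gene Muc16 with -3.90, -3.74 and -3.50. All 3 tumors were far below the reference for them, and the spread was at most 0.21 (SD). Of 15 germline and placental genes tested, 7 were lower and 1 higher, beside 9.07% and 23.6% of all genes. Among the lower were the homeobox gene Rhox5 at -3.17 ± 0.12 and Magea3, at least 8.59-fold lower, with no tumor signal above background. Ccl20, a chemokine, and Anxa10, an annexin, were at least 8.67-fold and 5.92-fold lower in the same way. Skin epithelium genes were lower in 3 of 11, Perp at -2.94, Sprr1a at -1.91 and Krt5 at -1.82, and higher in 1, beside the same shares of all genes. After median centring 5 were lower.

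Of 35 genes of the hypoxia response and glycolysis, 21 were called higher and none lower, with a median of 1.27. The lactate exporter gene Slc16a3 measured 4.81, 4.82 and 4.40 and the vasodilator gene Adm 4.90, 5.02 and 3.96. Pfkfb3, an activator of glycolysis, averaged 3.16 ± 0.54, and Ndrg1 2.45 ± 0.85 (SD, n = 3). Car9, carbonic anhydrase 9, was at least 2.91-fold higher, and Vegfa, in the lost area, averaged 1.71 in tumors 302 and 307. Tumor 307 was the highest in 21 of the 25 genes outside that area and tumor 312 the lowest in 23. The glycolytic enzyme genes Ldha and Gapdh, at 0.45 and -0.08, and Pdk1 of the same list, at 0.28, were not called. The count was 12 after median centring and 15 without either tumor 302 or tumor 307.

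The respiratory chain and endoplasmic reticulum stress lists lay nearer to the reference, while most immediate early genes were higher. Of 34 respiratory chain genes 3 were lower and none higher, close to the 9.07% of all genes, with Cycs (cytochrome c) at -1.22; after median centring 15 were lower. Of 24 endoplasmic reticulum stress genes 7 were higher and 2 lower, near the 23.6% and 9.07% of all genes, with Atf3 at 2.17, the chaperone gene Hspa5 at 1.13, Asns at -2.20 and Chac1 at -2.08; their median of 0.44 became -0.25 with median centring, where 3 were higher and 4 lower. Of 26 immediate early genes 17 were higher and 2 lower, beside 23.6% and 9.07% of all genes, with a median of 1.39. Egr2 was at 4.90 and Fos at 2.51 (5.08 and 2.68 without tumor 312, both in the lost area), Jun at 2.45 and Ccn2 at -1.33. After median centring 8 of the list were higher and 6 lower.

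Red cell and platelet genes were mixed. Of 12 erythroid genes tested, 5 were higher and 2 lower, beside 23.6% and 9.07% of all genes. Besides the haemoglobin genes and Alas2, the receptor gene Epor averaged 1.85. The transferrin receptor gene Tfrc averaged -1.74 (-1.69 without tumor 312, in the lost area) and Bpgm, a red cell glycolysis enzyme, -1.15. Of 13 platelet genes, 7 were higher and 2 lower, beside the same shares of all genes. The platelet chemokine genes lay on opposite sides. Pf4 measured 5.26, 5.11 and 4.92, and Ppbp measured -2.29, -2.54 and -2.83. Neither overlapped 0 on any array.

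Muscle and fat genes differed among the tumors. Skeletal muscle genes were higher in 28 of 36 tested, and tumor 307 was the lowest in 31 of the 34 outside the lost area, with list medians of 3.42, 1.48 and 3.16 in tumors 302, 307 and 312. The myosin heavy chain gene Myh2 measured 4.30, 1.12 and 3.57 and the myosin light chain gene Mylpf 3.57, 0.99 and 3.1, so tumor 307 stood apart in both. For Myh2 the Cy3 signal was highest on the array of tumor 307, at 7.50, 8.62 and 8.16. The tumors lay closer together for Myh8, at 5.84, 5.11 and 5.50, and for Acta1, at 4.69, 3.63 and 4.17. Without tumor 302, 22 of the list were called. Adipocyte genes were higher in 9 of 17, beside 23.6% of all genes, and ordered the tumors in another way. Their list medians were 1.56, 2.66 and 0.71, and that of tumor 312 was 0.86 over the genes outside the lost area. Cfd (adipsin) measured 5.6, 6.16 and 3.21, and Cidec, a lipid droplet protein, measured 1.41, 2.66 and -0.66 and was not called. Adipoq, with reference signal on 1 array, lay in the lost area and averaged 3.83 in tumors 302 and 307. Without tumor 312, 14 of the list were called higher. The count was 7 without tumor 302, without background correction and with the scanner's processed ratios.

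**Figure D4:**
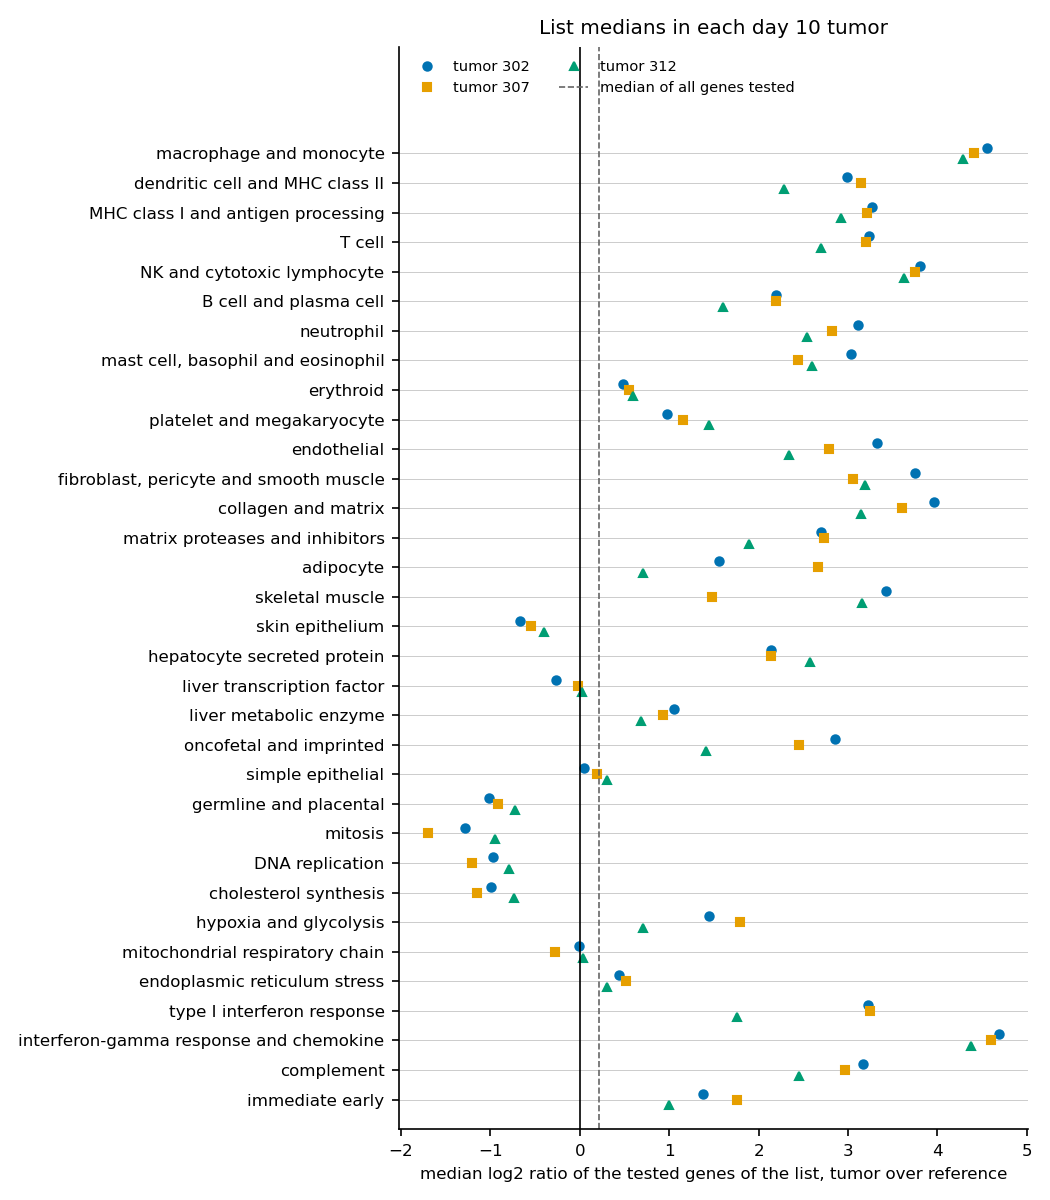
Median log2 ratio of tumor over reference for the tested genes of each of 33 lists, with 1 symbol per tumor; the dashed line is the median of all genes, 0.21. Muscle genes are lowest in tumor 307 (1.48), adipocyte genes lowest in tumor 312 (0.71) and mitosis genes lowest in tumor 307 (-1.70). The medians of tumor 312 include genes with a probe in the lost area, and outside it the adipocyte median is 0.86.

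Some genes chosen for their spread were highest in tumor 312. Tchh, which encodes trichohyalin of the inner root sheath, measured -0.68, 0.16 and 3.43 in tumors 302, 307 and 312, and was not called. Its SD of 2.17 was the largest among genes chosen for their spread outside the lost area. The inner root sheath keratin genes Krt27, with 1.11, 1.97 and 4.34, and Krt25, with 1.01, 2.12 and 4.11, were highest in tumor 312 as well. Their Cy3 signal was above background on 1 array each, and for Krt27 it was 6.48, 6.57 and 8.73 beside Cy5 values of 7.59, 8.55 and 13.07. Mup1, a major urinary protein gene of liver, and the placental prolactin family genes Prl2c3 and Prl2c5 were lowest in that tumor. Mup1 was at least 13.9-fold higher than the reference over the 3 arrays, with Cy5 log2 intensities of 10.60, 12.10 and 9.01. Rhoj, which encodes a small GTPase, and the cystatin gene Csta1 also had a large SD. Of the 12 genes chosen for their spread, 6 (Csta1, Myh2, Cidec, Tchh, Rhoj and Cfd) have spots in the rows of the lost area, within 10 columns of its outermost columns. The part of that position in their values was not tested. For Rhoj the Cy5 log2 intensity was 12.79, 12.86 and 12.47, while the Cy3 value was 5.98, 6.59 and 8.93.

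The reference signal of muscle genes was not steady across the arrays. In 15 genes outside the lost area with both dyes above background on every array, Cy5 differed between tumors 302 and 307 by at least 2 log2 units, and 12 of them belong to the muscle list. In 14 of the 15, Cy3 differed in the same direction. The exception was Myh2, with differences, tumor 302 minus tumor 307, of 2.06 in Cy5 and -1.12 in Cy3. Over the 15, the median Cy3 difference in the direction of Cy5 was 2.18 beside a median Cy5 difference of 2.99. In the other genes the Cy3 difference in the direction of Cy5 had a median of 0.08. For Myh4, Cy5 was 16.94, 13.32 and 15.23 and Cy3 was 11.78, 8.76 and 10.66 in the arrays of tumors 302, 307 and 312, so that its ratio, 5.16, 4.56 and 4.57, varied less than either dye. The part of this shared shift in the ratios of these genes was not tested.

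**Figure D5:**
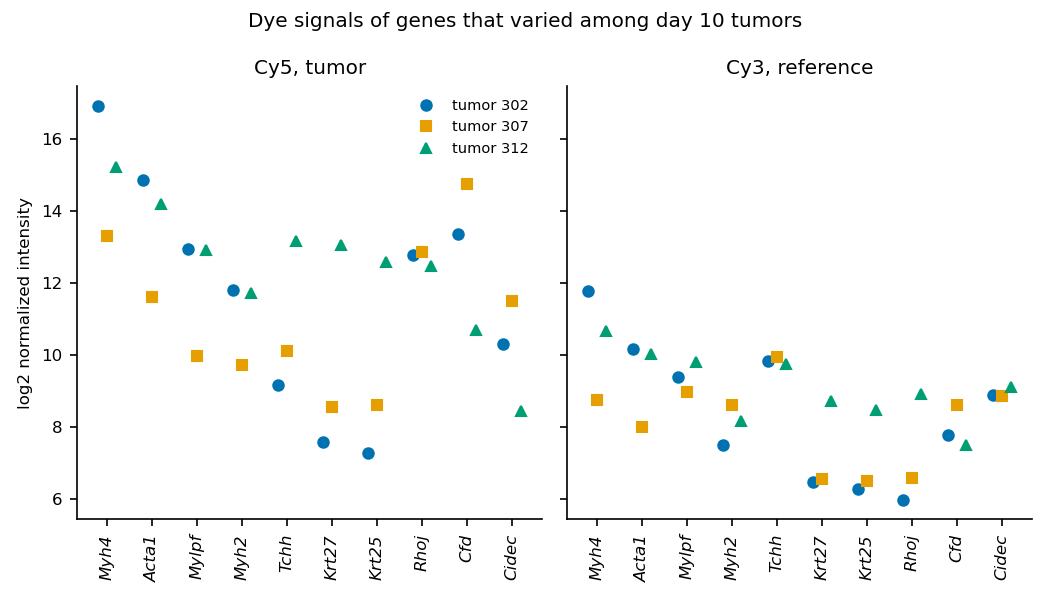
Log2 normalized intensity of Cy5 (tumor, left) and Cy3 (reference, right) for 10 genes that varied among the day 10 tumors, with 1 symbol per array. For Myh4 and Acta1 the reference dye is lowest on the array of tumor 307, as the tumor dye is; for Tchh only Cy5 is high on the array of tumor 312, at 13.17.

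Repeat spots show the error within an array. For 62 probes printed 10 times and bright in both dyes, the median SD of the log2 ratio within an array was 0.072, 0.057 and 0.110 for tumors 302, 307 and 312, and the median SD between the tumors was 0.156. Over 11085 genes bright in both dyes outside the lost area, the median SD over the tumors was 0.30 in Cy5, 0.27 in Cy3 and 0.12 in the ratio, and 23 genes (0.207%) had a ratio SD of at least 1. Of the 2182 tested genes with a probe in the lost area, 20.2% were called, beside 34.6% elsewhere, and the median SD there was 0.32 against 0.13.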

How the data were processed

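Scanner output deposited by the authors holds, per spot and dye, mean intensity, local background and flags, made with Agilent Feature Extraction 9.1.3.1 per the submitters' processing notes and the file headers. The authors also deposited a table of log10 ratios, processed Cy5 over Cy3, which were identical to the scanner's. The 3 arrays lay on 1 slide. Each had 43379 non-control spots (41174 probes). In limma 3.58.1 (R 4.3.3), mean intensity was corrected with normexp (offset 50) and log2 ratios were normalized by loess within each array, with controls and outlier spots at weight 0 and then left out. Spots of a probe were averaged. A probe passed the filter when 2 or more arrays had it well above background in Cy5 or Cy3, as 24084 probes did. The brightest of these for each of 16244 genes was tested against 0 with lmFit and eBayes, 2-sided. Names came from a RefSeq table (GRCm38.p6): 23374 probes by accession, 6733 by current and 2919 by older symbol, and 8148 kept the array's name. Bounds set the mean of the brighter dye, after loess and Aquantile, against, on each array, the lowest signal called well above background or that of the dim probe where higher; dye bias affects them. The lost area was found from smoothed Cy3 loss of over 1 log2 unit.

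An exact sign-flip test over 3 arrays cannot reach 0.05. The members, the 33 lists and the naming rule were chosen with earlier results of these data known. The rule named the 12 highest and 12 lowest called genes measured in both dyes, the 8 and 4 largest bounds, each list's defining genes and its 2 largest others, and the 12 largest SDs; other names were chosen after their values were seen. Lists are described by counts and medians, without a test. The fit was tested on simulated data. Alternatives changed background correction, normalization, filter, probe choice, spread, calls and the arrays used.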

Additional observations from a re-analysis of the deposited data

Results flagged for a closer look

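The array's E1A spike-in control probes, which entered no comparison, were brighter in Cy5 than in Cy3 on each array. The median log2 ratio of the 10 probes was 4.12 for tumor 302, 4.01 for tumor 307 and 3.91 for tumor 312, and all 10 were brighter in Cy5 on each of these arrays. They stand here because they are a signal in spots outside the measurements reported above.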

How the results depend on the processing

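The number of higher genes stayed within 1.5 times 3839 under other background correction, normalization, filter, probe choice and spread (3289 to 4140), and from 3576 to 4199 when a tumor was left out. It was 7293 with no size required and 2565 with limma's treat. The number of lower genes, 1473, moved to 3539 after median centring and to 2939 with the scanner's processed ratios and the value table of the authors; it was 5075 with no size required and 667 when limma's treat tested against a log2 ratio of 1. Without a tumor it ran from 1326 to 1671. Of 278 named genes, Dcn alone reversed, to -1.03 with probes above background on all 3 arrays. Probes of 1 gene did not always agree. Of 1763 called genes with several probes past the filter, 200 had a probe of opposite sign. No paired analysis was possible because every array carries 1 tumor and the same reference, and the groups share no replicate numbers. Dim probes limit what can be sized: for 1846 tested genes no probe had Cy3 signal above background on any array.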
